A study of Homo sapiens with 4 samples.

Results

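NRF2 ChIP-Seq summits were examined at the genes for cystine import and for 2 glutathione peroxidases, SLC7A11, SLC3A2, GPX4 and GPX2. A summit is the base with the highest signal in a peak. Every summit within 20 kb of the hg19 body of one of the 4 genes was taken, and these were 12 of the 9717 summits deposited for the 4 libraries. All libraries came from MDA-MB-231, a human triple-negative breast cancer line, grown as mammospheres in suspension on ultralow attachment dishes, and all were precipitated with the same antibody against NRF2. SC mammospheres (scrambled control, whose genotype the labels give as parental) and ZMYND8 KO mammospheres gave 2 libraries each, and the comparison asks whether NRF2 sits on these genes when ZMYND8, a reader of histone acetylation, is missing. The knockout line was made in earlier work. How many clones the line holds, and whether replicates were separate cultures, is not given in the sources used here, so a p-value measures only the spread between these libraries.

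Cells take up cystine in exchange for glutamate through system xc-. SLC7A11 (xCT) is its transporting light chain, and SLC3A2 (CD98, 4F2hc) is the heavy chain that brings it, and several other amino acid transporters, to the plasma membrane. Cystine is reduced to cysteine, which feeds glutathione synthesis. GPX4 spends glutathione to reduce lipid hydroperoxides within membranes and is the central enzyme that holds back ferroptosis, while GPX2 reduces hydrogen peroxide and is best known from the gut epithelium. The short DNA motif that NRF2 recognises, together with a small MAF partner, is called the antioxidant response element (ARE), and genes of this pathway are among its textbook targets.

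The RefSeq promoters of 2 of these genes, SLC3A2 and GPX2, hold the letters of an ARE core and are printed here because no list held a summit within 20 kb of either gene. Each run is the 250 bases before a RefSeq start, from 5′ to 3′ on the strand of the gene, in build GRCh38.p14, and capitals mark a match to TGACNNNGC on either strand. The SLC3A2 window lies at chr11:62881449-62881698 on the plus strand and is 1 of 3 windows for that gene, and the GPX2 window lies at chr14:64942746-64942995 on the minus strand.
SLC3A2: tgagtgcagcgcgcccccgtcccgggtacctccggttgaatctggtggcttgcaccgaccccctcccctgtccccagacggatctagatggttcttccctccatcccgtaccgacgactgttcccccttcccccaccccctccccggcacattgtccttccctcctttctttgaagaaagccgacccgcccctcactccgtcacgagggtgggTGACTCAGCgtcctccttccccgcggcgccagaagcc
GPX2: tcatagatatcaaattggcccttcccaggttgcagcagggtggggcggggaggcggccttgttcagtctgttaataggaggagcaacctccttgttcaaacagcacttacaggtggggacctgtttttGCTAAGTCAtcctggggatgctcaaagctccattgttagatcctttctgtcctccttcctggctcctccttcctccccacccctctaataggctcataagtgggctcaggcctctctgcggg
In SLC3A2 the match begins 37 bp before the start, reads TGACTCAGC, and overlaps a match to the AP-1 motif TGANTCA. In GPX2 it begins 122 bp before the start and reads TGACTTAGC on the opposite strand, with no AP-1 match in the window. The other SLC3A2 windows and all 3 windows of GPX4 held neither motif. Of 35116 promoter windows of this length in the table, 10.9% held the ARE core and 6.57% the AP-1 motif, so a match is a description of the sequence and not a site. SLC7A11 has no entry in the promoter table, and the sequence under its summits was not analysed here.

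SLC7A11 was the gene with summits in every library. Its window ran from 139065248 to 139183503 on chromosome 4 (hg19) and held 3 summits in SC replicate 1, 5 in SC replicate 2, and 1 and 2 in the ZMYND8 KO replicates of the same order. Both SC counts were above both ZMYND8 KO counts. Windows of that length held a summit in 5.13% and 15.0% of cases for SC replicates 1 and 2, and in 1.01% and 1.33% for ZMYND8 KO replicates 1 and 2. All 11 summits lay inside the gene body (139085248 to 139163503), within its first 6.92 kb, and together they spanned 6224 bp. Exons and introns were not assigned, since no hg19 annotation was used here.

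**Figure D1:**
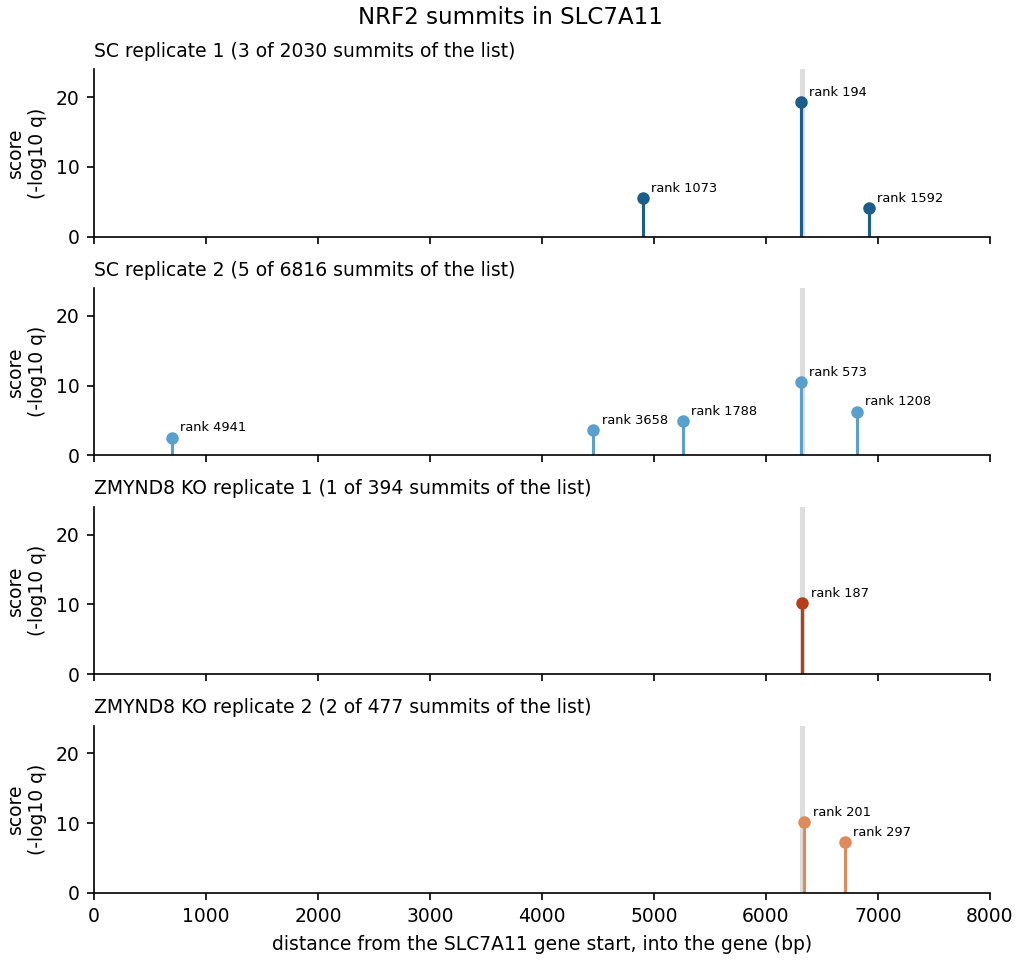
NRF2 summits in SLC7A11 in each library. The horizontal axis is the distance from the gene start into the gene in bp, the vertical axis is the score (−log10 of the q-value), and each line with a point is 1 summit with its rank in its own list. The grey band is the 32 bp in which all 4 libraries have a summit, about 6.3 kb from the gene start, and it holds the highest-scoring SLC7A11 summit of each list.

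One site in SLC7A11 was called in all 4 libraries. Its summits were at 139157189 and 139157193 in SC replicates 1 and 2, and at 139157178 and 139157161 in ZMYND8 KO replicates 1 and 2, which is 6310 to 6342 bp downstream of the gene start. The 4 positions differed by at most 32 bp, and the median difference over all 229 SC replicate 1 summits with a counterpart within 200 bp in every other list was 38.0 bp. This site scored highest of the SLC7A11 summits in each list. The score is the −log10 of a q-value and rises with sequencing depth, which the lists do not give, so it is set beside the rank in the same list and not compared between libraries. In SC replicate 1 the site scored 19.29 and ranked 194 of 2030. In SC replicate 2 it scored 10.48 and ranked 573 of 6816. In both SC lists it therefore stood high, at 9.56% and 8.41% of the list counted from the top. In ZMYND8 KO replicate 1 it scored 10.23 and ranked 187 of 394, and in ZMYND8 KO replicate 2 it scored 10.14 and ranked 201 of 477. These ranks lie at 47.5% and 42.1% of much shorter lists.

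The rank of the site was then read only among the 229 sites called in all libraries, so that every list had the same number of sites. By score, SLC7A11 stood at place 136 in SC replicate 1, at 202 in SC replicate 2, at 150 in the first ZMYND8 KO replicate and at 152 in the second. Both ZMYND8 KO places lay between the SC places, so the difference between the groups was smaller than that between the SC replicates. These 229 sites were chosen for being called in ZMYND8 KO too, and a place among them would not show a drop shared by all. The places therefore do not tell whether NRF2 at this site depends on ZMYND8.

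**Figure D2:**
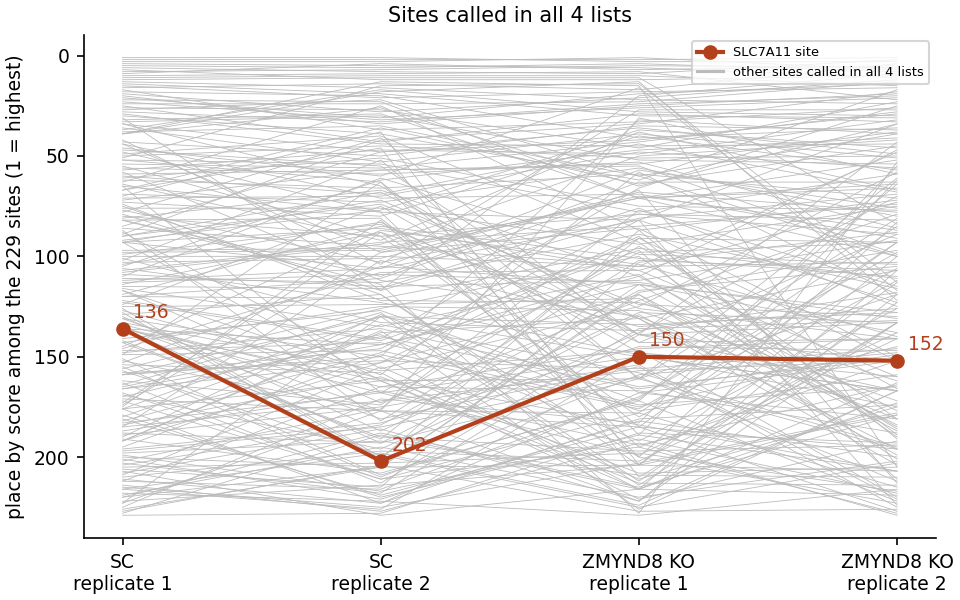
Place by score of each of the 229 sites called in all 4 lists, with place 1 at the top. Each line joins 1 site across the libraries, and the SLC7A11 site stands at 136 and 202 in SC and at 150 and 152 in ZMYND8 KO.

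The other SLC7A11 summits had lower scores and recurred less evenly. Next to the shared site, at 6706 to 6918 bp from the gene start, lay a summit of SC replicate 1 (score 4.04, rank 1592), of SC replicate 2 (6.28, rank 1208) and of ZMYND8 KO replicate 2 (7.30, rank 297). The SC replicate 2 summit was 106 bp from each of the others, which were 212 bp apart, so whether the SC replicate 1 summit recurs in ZMYND8 KO depends on the distance allowed. ZMYND8 KO replicate 1 had no summit there, the nearest being 487 bp from that of SC replicate 2. Closer to the gene start, SC replicate 1 had a summit at 4899 bp (score 5.56), and SC replicate 2 had summits at 5255 bp (4.92) and 4458 bp (3.62). These were 356 and 441 bp from that of SC replicate 1, beyond the 200 bp taken as the same site, and more than 1000 bp from any ZMYND8 KO summit. At the start of the gene, SC replicate 2 alone had a summit, at 694 bp with a score of 2.53, a value it shared with 556 summits of its list in all. No summit within 2000 bp of the SLC7A11 start was thus found in both replicates of either group.

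Over the whole lists, 38.0% and 32.5% of summits of the SC replicates and 27.7% and 25.2% of those of the ZMYND8 KO replicates had another of the same list within 2000 bp. Windows as long as that of SLC7A11 with at least as many summits were 0.501% of all for the 3 of SC replicate 1, 0.783% for the 5 of SC replicate 2, and 0.141% for the 2 of ZMYND8 KO replicate 2. In ZMYND8 KO, the next summit outside the window was 8087 kb from the gene in replicate 1 and 15243 kb in replicate 2, on a chromosome that held 12 and 21 summits in all. In SC it was 3394.9 kb away in replicate 1 and 75.2 kb in replicate 2, with 53 and 178 summits on that chromosome.

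GPX4 had 1 summit in its window, and only in SC replicate 2. It lay at 1099324 on chromosome 19, 4612 bp upstream of the gene start at 1103936, with a score of 6.28 and a rank of 1208 of 6816 that it shared with 175 summits in all. Windows of that length held a summit of SC replicate 2 in 6.51% of cases and of SC replicate 1 in 2.01%, against 0.376% and 0.495% for ZMYND8 KO replicates 1 and 2. The next protein-coding gene on that side in RefSeq is POLR2E, a subunit of RNA polymerases, so the summit lies between neighbours and is not assigned to GPX4 by its position alone. Just outside the window, SC replicate 2 had a further summit 21.4 kb beyond the end of GPX4 with a score of 2.39, which was not assigned to a gene. In SC replicate 1 the nearest summit was 62.8 kb from the gene, and in ZMYND8 KO replicates 1 and 2 it was 5424 and 9507 kb away.

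SLC3A2 had 0 summits within 20 kb in each of the 4 lists. Its window on chromosome 11 (62603518 to 62676355) covers the whole gene body of 32838 bp, which begins at 62623518. The nearest summits were 428.1 and 238.9 kb away for SC replicates 1 and 2, and 884.0 and 428.1 kb away for the ZMYND8 KO replicates. Windows of that length held a summit in 3.31% and 10.2% of cases for the SC replicates and in 0.631% and 0.827% for the ZMYND8 KO replicates, so a window without one is the usual case in every list. The heavy chain thus had no NRF2 peak called within 20 kb in either genotype, while its light chain partner SLC7A11 had one in all libraries.

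GPX2 likewise had 0 summits within 20 kb in each list, in a window from 65385870 to 65429531 on chromosome 14 around a gene of 3662 bp. Windows of that length held a summit in 2.04% and 6.63% of cases for the SC replicates, and in 0.384% and 0.504% for the ZMYND8 KO replicates. The nearest summits were 379.1 and 312.1 kb away in SC and 379.1 kb away in both ZMYND8 KO libraries. A peak below the calling threshold leaves no trace in these lists, so binding at SLC3A2 and GPX2 was not detectable here, which is not the same as absent.

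**Figure D3:**
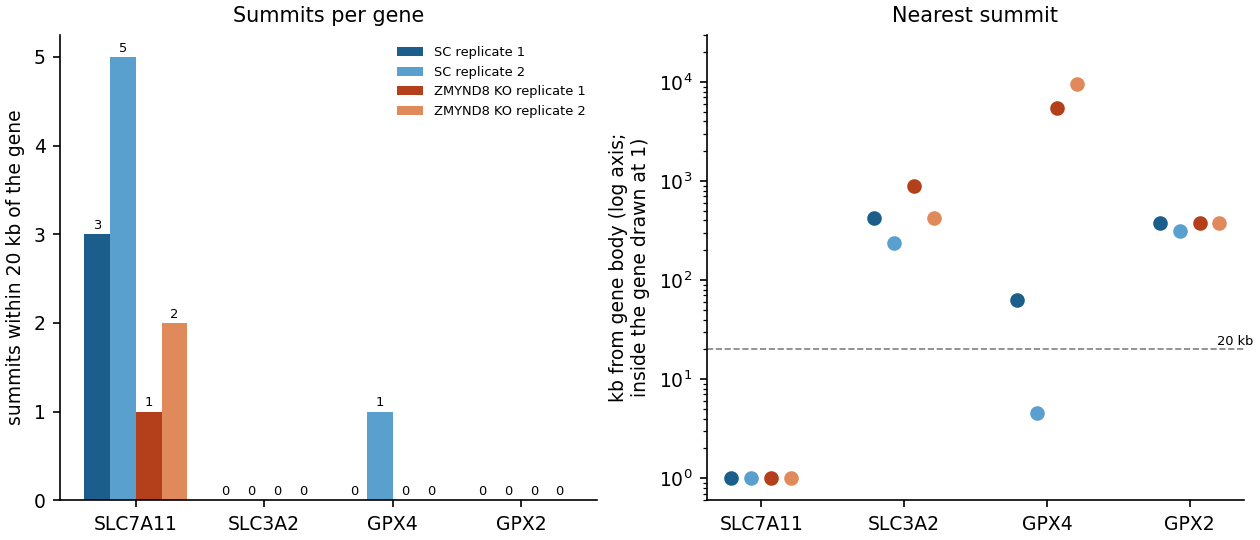
Left, the number of summits within 20 kb of each gene in each of the 4 lists as bars from 0. Right, the distance in kb from the gene body to the nearest summit of each list on a log axis, with summits inside a gene drawn at 1 and the 20 kb limit dashed. SLC7A11 has a summit inside the gene in all lists, and SLC3A2 and GPX2 have none within 200 kb in any.

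Over the 4 genes, SC libraries held 4.5 ± 2.12 summits (SD, n = 2) and ZMYND8 KO libraries 1.5 ± 0.707 (SD, n = 2). The difference of −3.0 summits was all in SLC7A11 (4.0 ± 1.41 against 1.5 ± 0.707) and the single GPX4 summit (exact permutation test over libraries, two-sided p = 0.33, the smallest that 2 libraries against 2 allow). The ZMYND8 KO lists were also shorter throughout. As a share of the list, summits near the 4 genes made up 0.148% in SC replicate 1 (Wilson 95% interval 0.0503% to 0.434%) and 0.0880% in SC replicate 2 (0.0404% to 0.192%). In ZMYND8 KO replicates 1 and 2 they made up 0.254% (0.0448% to 1.42%) and 0.419% (0.115% to 1.52%). The intervals cover counting error only, and those of every pair of an SC and a ZMYND8 KO list overlapped. They treat summits as independent, although 11 of the 12 lay in a stretch of 6224 bp inside SLC7A11. The intervals are thus too narrow and their overlap is not a test.
The lower count in ZMYND8 KO was not seen at a stricter score. At a score of at least 10, each of the 4 lists held 1 summit near these genes, and it was the shared SLC7A11 site. Of all summits, that limit kept 473 and 617 for SC, against 196 and 213 for ZMYND8 KO. The site passed narrowly outside SC replicate 1, with scores of 10.48, 10.23 and 10.14, so a slightly higher limit would change these counts. Scores also rise with the unknown depth, so the equal counts do not tell whether the groups differ. Among the 300 highest-scoring summits of each list, ties included, SC replicates 1 and 2 had 1 and 0, while the ZMYND8 KO replicates had 1 and 2. This turn comes with the length of the lists, since the limit keeps 306 of 394 and 313 of 477 summits in ZMYND8 KO but 300 of 2030 and 300 of 6816 in SC. It takes in a ZMYND8 KO replicate 2 summit with a score of 7.30 at rank 297 and leaves out the shared site of SC replicate 2, with a score of 10.48 at rank 573.

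Recurrence of single SC summits was read against the whole list. Of the 3 SC replicate 1 summits near these genes, 1 had a ZMYND8 KO summit within 200 bp, against 22.2% of the list. Of the 6 in SC replicate 2, 2 had one, against 7.00% of the list. Between the SC replicates, 2 of 3 and 2 of 6 recurred, against 58.7% and 17.6% of the lists. In the other direction, all 3 ZMYND8 KO summits near the genes had an SC summit within 200 bp, against 91.1% and 88.1% of ZMYND8 KO replicates 1 and 2. Between the ZMYND8 KO replicates, 1 of 1 and 1 of 2 recurred, against 68.8% and 56.8% of the lists. With so few summits these counts are a description and are not set apart from the lists.
Summits of like rank give a closer background. A summit was taken as of like rank when the middle of its tied ranks was at most 50 from that of the member, so ties widen these sets. Among the 99 SC replicate 1 summits ranked like the shared SLC7A11 site, from 150 to 249, 64.6% had a summit in either ZMYND8 KO list and 42.4% in both. Among the 100 SC replicate 2 summits ranked from 522 to 622, these shares were 23.0% and 12.0%. The SLC7A11 site was called in both ZMYND8 KO lists, as were 42.4% and 12.0% of its neighbours in rank. The other SC replicate 2 summit that recurred, at rank 1208, had a summit of ZMYND8 KO replicate 2 beside it, and 4.02% of summits of like rank had one in either ZMYND8 KO list. For the 2 SC replicate 1 summits of SLC7A11 that did not recur, summits of like rank recurred in 1.85% and 4.41% of cases. For the GPX4 summit of SC replicate 2 the share was 4.60%, and for the 3 SLC7A11 summits of that list that did not recur it was 0.180% to 1.80%. A weak SC summit without a ZMYND8 KO counterpart was thus the usual case at these ranks and is not particular to these genes.

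**Figure D4:**
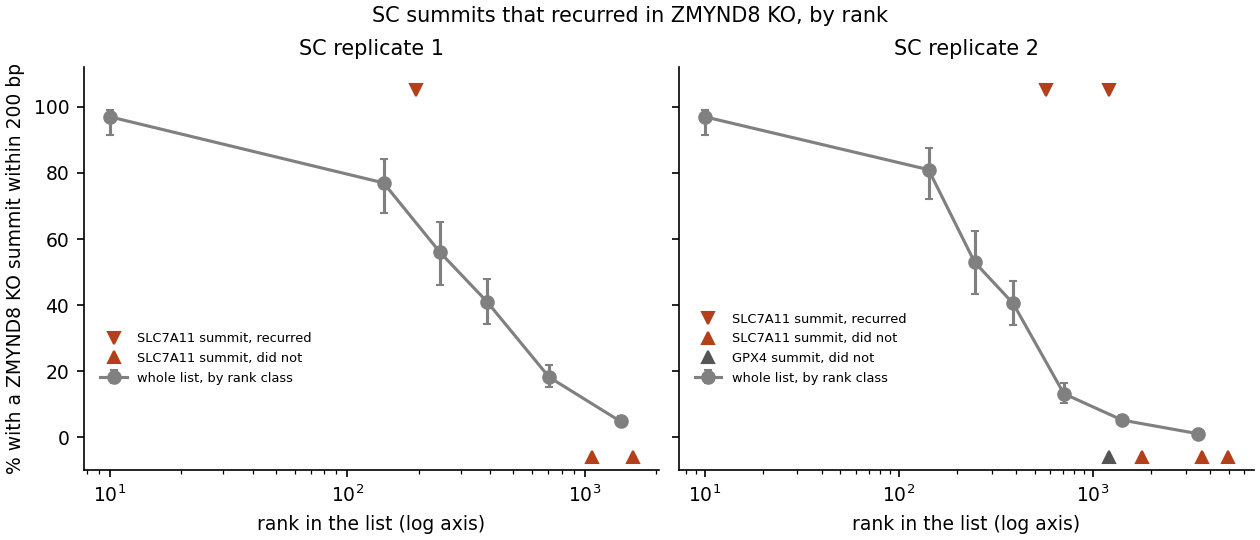
Percentage of summits in each SC list that had a ZMYND8 KO summit within 200 bp, by rank in the SC list on a log axis. Grey points are rank classes with Wilson 95% intervals, up to rank 2000 in SC replicate 1 and rank 6000 in SC replicate 2. Triangles at the top mark summits near SLC7A11 that recurred and triangles at the bottom those near SLC7A11 or GPX4 that did not, and at the top are rank 194 in SC replicate 1 and ranks 573 and 1208 in SC replicate 2.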

How the data were processed

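NRF2 ChIP-Seq summit lists of 4 libraries were used, 2 from SC and 2 from ZMYND8 KO, grouped by their titles. The authors called peaks with MACS2 and deposited 1 summit per peak with a score, taken as a −log10 q-value because the lowest of all, 1.32, lies just above 1.30, the −log10 of 0.05. The submitters' processing notes name FastQC 0.11.2, Bowtie2 2.2.3, Picard 1.127 and MACS2 2.0.10, and the builds hg19 and hg38. A control library is not given in the sources used here. Without reads, the depth of each library, and hence the precision it gives, remains unknown.

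The lists were read in hg19. The windows of the 4 genes held 12 summits at hg19 positions and 1 at RefSeq GRCh38 positions, and 93 summits lay beyond the last GRCh38 gene of their chromosome. GPX4 lies at nearly the same place in both builds. No positions were converted, and genes named as neighbours are from RefSeq GRCh38.p14 by order alone. The other SLC7, SLC3 and GPX genes of the planned list were not analysed here, since no hg19 annotation was used.

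Summits within 200 bp were taken as the same site, ties take the best rank, and positions count from 1. Background windows are consecutive stretches as long as the gene with 20 kb at each end, over chromosomes 1 to 22 and X. Summits of like rank are those whose middle rank, over ties, is at most 50 away. All 4 genes are named. The genes, lists and tests were chosen with earlier results of these data known. The matching code was checked on simulated lists, which does not tell whether 200 bp is a fitting distance. Alternatives kept scores of 10 or more, or the top 300 summits of each list, or used windows of 5, 10 and 50 kb, sites within 100, 500 and 1000 bp, summits within 500 bp counted as 1, each library left out, and pairing by replicate number. Python 3.11.15, numpy 2.4.6, pandas 2.3.3, scipy 1.17.1 and matplotlib 3.10.9 were used.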

Additional observations from a re-analysis of the deposited data

How the results depend on the processing

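The difference in summits near the 4 genes, ZMYND8 KO minus SC, was −3.0. It was 0.0 at a score of at least 10, where each library held 1, just above that limit in all but SC replicate 1. It turned to 1.0 with the 300 highest-scoring summits, a limit that keeps most of each ZMYND8 KO list and a small part of each SC list. Leaving out 1 library, it ran from −4.5 to −1.5, and it stayed negative with windows of 5, 10 and 50 kb and with summits within 500 bp counted as 1. Paired by replicate number (replicate block) it was −3.0, lower in ZMYND8 KO in both of 2 pairs (two-sided exact permutation test of the signs, p = 0.5, which is the lowest value possible with 2 pairs). Nothing in the labels ties equal numbers to a shared batch. No alternative could pass a threshold at this size.

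Over both SC lists, 33.3% of the 9 summits near the genes had a ZMYND8 KO summit, against 22.2% and 7.00% of all summits of SC replicates 1 and 2. In this share and in that between the SC lists, a site called in both SC lists is counted once from each. At a score of at least 10 the ZMYND8 KO share was 100%, but these 2 of 2 were the shared SLC7A11 site in each SC list. With the 300 highest-scoring summits it was also 100% (1 of 1). It ran from 22.2% to 33.3% without 1 library, and was 22.2% within 100 bp and 44.4% within 500 bp and within 1000 bp. With summits within 500 bp counted as 1 it was 22.2%, and with windows of 50 kb it was 27.3%. Of the 9 SC summits near the genes, 44.4% recurred in the other SC list, against 58.7% and 17.6% of all summits of SC replicates 1 and 2. For these 9 the share was 22.2% within 100 bp, 77.8% within 500 bp and within 1000 bp, 100% at a score of at least 10 and 0% with the 300 highest-scoring summits, where 1 summit was left. Stricter lists leave fewer summits by construction. Unknown depth limits every count.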

Other observations

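Beyond the window of GPX4, the SC lists held a group of summits on the downstream side of the gene. SC replicate 2 held 4 summits from 61.4 to 62.8 kb beyond the end of the gene, with scores from 3.65 to 6.28. SC replicate 1 held 1 summit there, at 1169600 on chromosome 19 (score 4.04, rank 1592), which was 40 bp from the last of the 4. SBNO2 is the next protein-coding gene on that side in RefSeq, and whether these summits lie within it was not assigned. Their position does not assign them to GPX4. Neither ZMYND8 KO list had a summit within 100 kb of GPX4. The 4 summits of SC replicate 2 ranked from 1208 to 3054. At ranks 1001 to 2000, 4.8% of SC replicate 1 and 5.2% of SC replicate 2 summits had a ZMYND8 KO summit within 200 bp. At ranks 2001 to 6000 of SC replicate 2 this was 1.1%, so a lack of one was the usual case. The summits downstream of GPX4 were looked at after their values had been seen.

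The nearest site to GPX2 was the same in 3 lists. On chromosome 14, SC replicate 1 had a summit at 65788585, 379.1 kb upstream of the gene, and ZMYND8 KO replicates 1 and 2 had summits 13 and 39 bp from it. SC replicate 2 had its nearest summit to that position 369 bp away.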
